A study of Mus musculus with 6 samples.

Results

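The P2X and P2Y purine receptors were followed in cultures of HL-1, a beating line of mouse atrial muscle cells, through the mRNA counts of 10 of their genes among 38087 gene IDs. The genes were P2rx1, P2rx3, P2rx4, P2rx5, P2rx6, P2rx7, P2ry1, P2ry2, P2ry6 and P2ry14. The genes were chosen by family and on their log2 fold changes in these same 6 libraries, P2rx1 foremost. The differences between groups are therefore given for them as descriptions, without p-values. Counts of these genes past a threshold are given only beside the shares of all genes, and nothing is read from them. Cells had received 100 nM siRNA targeting Circ-INSR, named after the insulin receptor, or a scrambled siRNA, and each group had 3 libraries. The files count genes and not circular junctions, so the knockdown itself is not checked here. No other treatment or genotype is named, and both groups are the same single line, so that differences among hearts or strains are not represented. Whether the 3 libraries of a group are separate cultures is not stated, and p-values therefore cover only the spread among these libraries, which may be technical.

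P2X receptors are cation channels opened by extracellular ATP, each built of a trio of subunits, which admit sodium and calcium. P2Y receptors are G protein-coupled and respond to ATP, ADP, UTP, UDP or UDP-sugars. In heart muscle, ATP released by stretch, ischaemia or nerves acts through both families on calcium entry and contraction, and its breakdown product adenosine acts on a separate receptor family that slows atrial cells.

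Libraries held between 60024750 and 77037474 counts, more in the Circ-INSR siRNA group. The control library furthest from its group was replicate 3, whose counts gave chi-square values per gene of 31.1 and 21.6 in the pairs with replicates 1 and 2, which gave 6.95 with each other. Levels are given as CPM, the usual counts-per-million scale, with TMM library factors (trimmed mean of M values). All 10 atrial cardiomyocyte markers listed were detected and testable, with summed levels of 6358 to 6625 CPM in control and 7035 to 7186 CPM in Circ-INSR siRNA libraries, although Nppa, the atrial natriuretic peptide gene, reached only 16.6 CPM and Sln, sarcolipin, 0.908 CPM in control. The sum hides opposite changes, since 4 of the 10 rose, 4 fell and 2 did not pass in the edgeR test (adjusted p under 0.05). Mean Actc1 went from 887 to 1625 CPM, and mean Tnnt2 from 2021 to 1216 CPM.

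Promoter windows in RefSeq (build GRCm38.p6, 300 bases around a transcript start) matched 7 of the 10 genes. Those of P2rx1, P2rx4 and P2rx7 are printed because P2rx1 was the gene with the higher level, P2rx4 the one with the lowest log2 fold change, and P2rx7 lies beside P2rx4. They lie on the plus strand at chr11:72998895-72999194, chr5:122707294-122707593 and chr5:122643677-122643976, and for P2rx7 the first of its windows is shown. Capitals mark the motifs found among those searched on both strands.
P2rx1: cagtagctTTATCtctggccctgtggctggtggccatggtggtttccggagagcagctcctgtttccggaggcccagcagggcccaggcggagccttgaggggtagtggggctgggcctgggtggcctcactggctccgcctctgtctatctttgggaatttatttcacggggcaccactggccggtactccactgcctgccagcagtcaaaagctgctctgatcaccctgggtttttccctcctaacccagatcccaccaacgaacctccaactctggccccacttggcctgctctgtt
P2rx4: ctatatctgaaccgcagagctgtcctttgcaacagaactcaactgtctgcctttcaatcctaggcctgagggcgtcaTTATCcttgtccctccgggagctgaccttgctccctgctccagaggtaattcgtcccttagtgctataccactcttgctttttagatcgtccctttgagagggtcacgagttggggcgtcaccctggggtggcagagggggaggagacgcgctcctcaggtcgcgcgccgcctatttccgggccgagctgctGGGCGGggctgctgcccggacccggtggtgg
P2rx7: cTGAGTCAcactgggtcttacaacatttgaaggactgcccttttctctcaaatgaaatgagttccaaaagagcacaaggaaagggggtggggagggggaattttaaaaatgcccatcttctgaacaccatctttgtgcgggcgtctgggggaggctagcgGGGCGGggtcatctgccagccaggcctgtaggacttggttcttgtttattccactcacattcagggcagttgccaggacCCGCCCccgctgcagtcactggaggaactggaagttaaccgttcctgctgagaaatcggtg
The search covered the TATA box as TATAAA, the GC box as GGGCGG, the E-box as CACGTG, the AP-1 motif as TGANTCA, the cAMP response element as TGACGTCA, the GATA motif as GATAA, the TEAD motif as CATTCC, and the CArG box. The P2rx1 window held GATAA, on the other strand, at position 9, and none of the other motifs. The P2rx4 window held GATAA on the other strand at position 78 and GGGCGG at position 270, close to its start. The P2rx7 window held GGGCGG at position 161 and on the other strand at position 240, and TGAGTCA at position 2. Another P2rx7 window, not printed, held GATAA on the other strand at position 193. Over all 32851 promoter windows, 25.4% held GATAA, 35.7% GGGCGG and 7.81% TGANTCA. A match is a description of the letters and not of a bound site.

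Of the 10 genes, 8 passed the filter on low counts and 2, P2ry1 and P2ry14, were at 0 in every library. Among the 8, P2rx1 was higher and the other 7 had lower means after Circ-INSR siRNA. In the edgeR quasi-likelihood fit of all genes, 1 of the 8 was past the threshold (Benjamini-Hochberg adjusted p under 0.05) in the higher direction and 5 in the lower direction, where 57.0% of all 16666 genes tested were past it, 28.5% in each direction. The groups were without overlap in 7 of the 8, and in 63.3% of all genes, with Circ-INSR siRNA libraries above control in 1 and below in 6, against 32.0% and 31.3%. That threshold and a log2 fold change of 1 or more in size were both met by 2 of the 8, P2rx1 and P2rx4, and by 8.51% of all genes, with P2rx5 just outside at -0.99. Since the comparison entered the choice of the genes, nothing is read from these shares. The median log2 fold change was -0.44 over the 8 genes and -0.0045 over all genes tested.

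**Figure D1:**
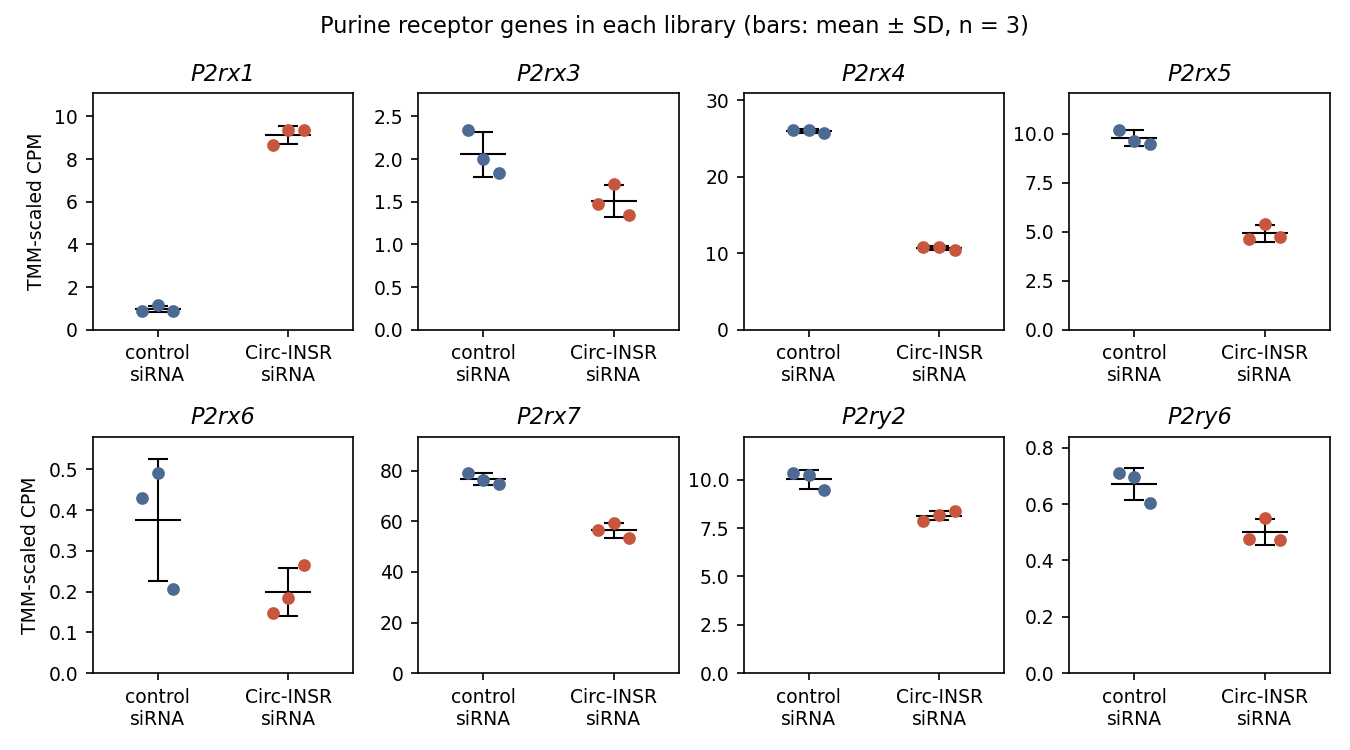
TMM-scaled CPM (y axis, starting at 0, a scale for each gene) of the 8 purine receptor genes that passed the filter, as 1 point per library, with the mean and SD of 3 libraries per group. P2rx1 lies near 1 CPM in control and near 9 CPM in Circ-INSR siRNA libraries, and only P2rx6 has groups that overlap.

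P2rx1 encodes a fast-desensitizing ATP-gated channel best known from smooth muscle and platelets (ENSMUSG00000020787, mm10 chromosome 11, 72999103 to 73015200, plus strand). It had 0.892, 1.16 and 0.860 CPM in control replicates 1 to 3 and 8.65, 9.38 and 9.39 CPM in Circ-INSR siRNA replicates 1 to 3. These values rest on 54, 73 and 54 counts in control and on 582, 713 and 675 counts in the other group. Every Circ-INSR siRNA library was far above every control library. The mean level was 9.43-fold higher, a log2 fold change of 3.23 (standard error, SE, 0.12). Among the 16666 genes tested 14 had a log2 fold change at least as high, P2rx1 included. With any 1 library left out, or under another scaling, filter or tool, the value lay between 3.16 and 3.38.

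Markers of the cell types that P2rx1 is best known from were read beside it. Of 6 smooth muscle markers, 4 rose and 0 fell in the edgeR test, and their summed level was 4227 to 4333 CPM in control and 6677 to 6909 CPM in Circ-INSR siRNA libraries. Most of that sum was Acta2, smooth muscle actin, at 3474 and 5791 CPM, while Myh11, the smooth muscle myosin, was at 0.977 and 2.01 CPM. Of 6 platelet and megakaryocyte markers, 3 could be tested, of which 0 rose and 2 fell, and their summed level was 9.97 to 11.4 CPM and 4.80 to 5.04 CPM. Most of the platelet sum was Itga2b, with means of 7.97 CPM in control and 3.25 CPM after Circ-INSR siRNA. None of the platelet markers was at 0 in all libraries, but Gp6, a platelet collagen receptor, had 2 counts in total, Ppbp 8 and Gp9 10. The part of the smooth muscle genes in the P2rx1 result was not tested. In RNA from whole cultures, fewer cells that express a gene and less RNA per cell cannot be told apart.

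**Figure D2:**
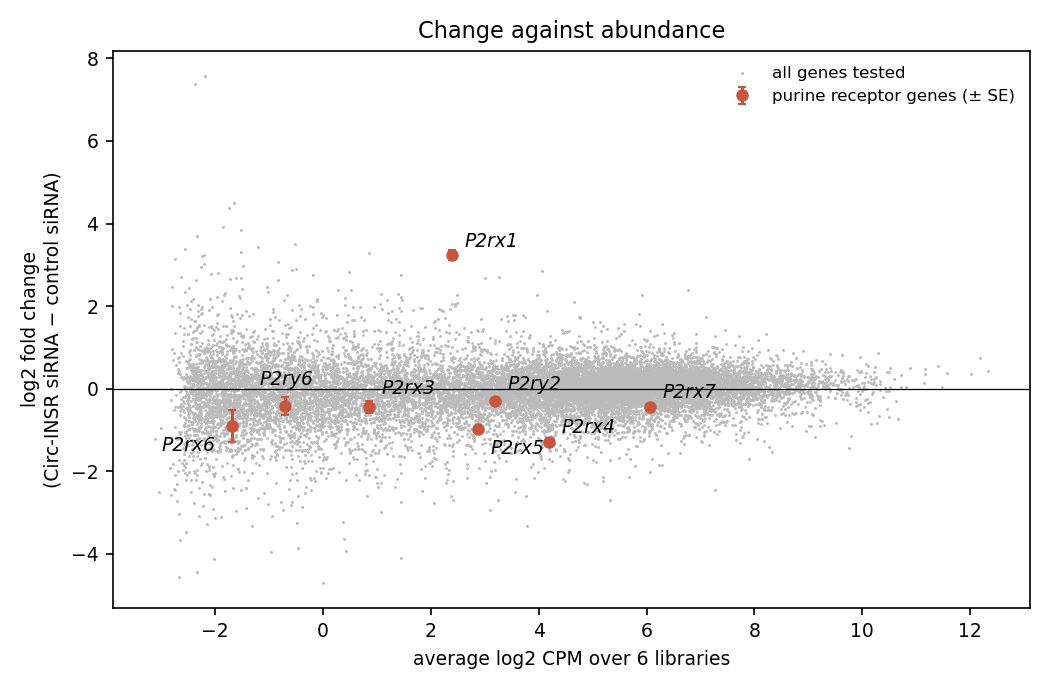
Log2 fold change (y axis, Circ-INSR siRNA minus control siRNA) against average log2 CPM over the 6 libraries (x axis) for all 16666 genes tested (grey) and the 8 purine receptor genes (red, with SE). P2rx1 lies at 3.23, and the other 7 lie between -1.28 and -0.30.

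P2rx4 encodes a slowly desensitizing channel of high calcium permeability that is also found in lysosomes and is expressed in cardiomyocytes (ENSMUSG00000029470, chromosome 5, 122707544 to 122729738, plus strand). Its level was 26.2, 26.05 and 25.7 CPM in control and 10.8, 10.8 and 10.4 CPM in Circ-INSR siRNA libraries. The groups lay far apart and the libraries within each were nearly equal, with a coefficient of variation of 0.892% and 2.15%. The mean in the Circ-INSR siRNA group was 41.1% of control, a log2 fold change of -1.28 (SE 0.06), with a range over the alternatives of -1.33 to -1.26.

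P2rx5 encodes a subunit that has been studied in muscle differentiation (ENSMUSG00000005950, chromosome 11, 73160421 to 73172685, plus strand). It had 10.2, 9.66 and 9.49 CPM in control and 4.62, 5.41 and 4.74 CPM in Circ-INSR siRNA libraries. The highest Circ-INSR siRNA library was well below the lowest control. The mean was 50.3% of control, a log2 fold change of -0.99 (SE 0.09).

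P2rx7 encodes a channel that needs high ATP concentrations, known for opening the way to inflammasome activation and cell death (ENSMUSG00000029468, chromosome 5, 122643911 to 122691432, plus strand). It was the most abundant of the 10 genes by CPM, with 79.1, 76.4 and 74.6 CPM in control and 56.7, 59.4 and 53.5 CPM in Circ-INSR siRNA libraries. All Circ-INSR siRNA libraries were below all controls. The mean was 73.7% of control, a log2 fold change of -0.44 (SE 0.05). The macrophage marker Adgre1 was at 0 in all 6 libraries and the leukocyte marker Ptprc had 10 counts in total. Of the 6 macrophage and leukocyte markers 2 could be tested, and both fell, with a summed level over the list of 6.51 to 7.5 CPM in control and 3.99 to 4.55 CPM in Circ-INSR siRNA libraries, where their part in the result was not tested.

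P2rx3, a channel gene best known from sensory neurons (ENSMUSG00000027071, chromosome 2, 84998583 to 85037462, minus strand), had 2.35, 1.996 and 1.83 CPM in control and 1.47, 1.71 and 1.35 CPM in Circ-INSR siRNA libraries. The groups were separate but close, and the log2 fold change was -0.44 (SE 0.15). Of 6 neuronal markers 4 could be tested, 1 rose and 1 fell, and Snap25 had 1 count in total. The summed neuronal level was 3.04 to 4.41 CPM in control and 3.72 to 4.397 CPM after Circ-INSR siRNA, and its part in the result was not tested. The annotation places 51 bases of P2rx3 exons (1.8%) over exons of Ssrp1, a histone chaperone gene on the opposite strand, which had 241.8 CPM in control. Whether the counting used strand is not given in the sources used here, so reads there may belong to either gene.

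P2rx6 encodes a subunit that forms channels mainly together with other P2X subunits (ENSMUSG00000022758, chromosome 16, 17561885 to 17577800, plus strand). It had 26, 31 and 13 counts in control and 10, 14 and 19 counts in Circ-INSR siRNA libraries. That is 0.430, 0.491 and 0.207 CPM against 0.149, 0.184 and 0.264 CPM, and the groups overlapped. Exons of Slc7a4, on the opposite strand, cover 13.9% of its exonic bases. With counts halved, as may be due where both mates of a pair were counted, the gene no longer passed the filter. P2rx6 is therefore too low to judge.

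Among the P2Y genes, P2ry2 encodes a receptor for ATP and UTP that signals through Gq to calcium stores (ENSMUSG00000032860, chromosome 7, 100996568 to 101012866, minus strand). Its level was 10.3, 10.3 and 9.46 CPM in control and 7.87, 8.19 and 8.36 CPM in Circ-INSR siRNA libraries. The groups did not overlap, and the mean was 81.3% of control, a log2 fold change of -0.30 (SE 0.07). P2ry6 encodes the UDP receptor, also coupled to Gq (ENSMUSG00000048779, chromosome 7, 100937630 to 100974649, minus strand). It had 0.710, 0.697 and 0.605 CPM in control and 0.475, 0.552 and 0.473 CPM in Circ-INSR siRNA libraries, on 32 to 44 counts each. Its lowest control was just above the highest Circ-INSR siRNA library, and the log2 fold change was -0.42 with a SE of 0.22.

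P2ry1, the gene of the ADP receptor (ENSMUSG00000027765, chromosome 3, 61002795 to 61008982, plus strand), and P2ry14, that of the UDP-glucose receptor (ENSMUSG00000036381, chromosome 3, 59113855 to 59153618, minus strand), had 0 counts in all 6 libraries. A count of 0 allows up to 3 counts in a library, which is 0.0389 to 0.04998 CPM, for counting error only. P2ry14 lies within the span of Med12l, on the opposite strand, without shared exons. Med12l, a Mediator subunit gene, was at 3.96 CPM in control, and it fell by 1.09 on the log2 scale (edgeR adjusted p = 1.17e-05). Both receptors are too low to judge in either group.

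The 7 nucleotide receptor genes outside the list were all near 0, and 0 of them passed the filter. P2rx2 had 1 to 5 counts per library and P2ry4, a receptor for UTP, 4 to 13. P2ry10 and P2ry10b had at most 4 counts in a library, and Gpr17 at most 6. P2ry12, the ADP receptor of platelets and microglia, had 2 counts in 1 library, and P2ry13 had 0 in all. The receptors above 3 CPM in either group were P2rx1, P2rx4, P2rx5, P2rx7 and P2ry2.

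To compare genes with each other, CPM was divided by the length of the merged exons in kb. In control libraries the order of this level was P2rx7 at 12.8 ± 0.378 CPM per kb (SD, n = 3), P2rx5 at 4.09 ± 0.161, P2rx4 at 3.70 ± 0.0330, P2ry2 at 2.55 ± 0.124, P2rx3 at 0.738 ± 0.0943, P2rx1 at 0.369 ± 0.0621, P2ry6 at 0.232 ± 0.0199 and P2rx6 at 0.0941 ± 0.0374. Each gene was above the next in all 3 control libraries. The order of P2rx5 and P2rx4 turned when the longest annotated transcript was used as the length, with 4.09 and 6.67 CPM per kb, because the merged exons of P2rx4 come to 7025 bases and its longest transcript to 3895. By merged exon length, P2rx7 was above 72.1% of the 16364 genes tested that have a length, and P2rx1 above 16.5%.

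After Circ-INSR siRNA, P2rx1 stood in place 2 of the 8, at 3.48 ± 0.162 CPM per kb, below P2rx7 at 9.47 ± 0.492 and above P2ry2 at 2.07 ± 0.0629. P2ry2 and P2rx5, at 2.06 ± 0.177, overlapped between libraries. P2rx4 followed at 1.52 ± 0.0327 and P2rx3 at 0.541 ± 0.0658. With the longest transcript as the length P2rx4 was at 2.74 CPM per kb, in place 3, ahead of P2ry2 at 2.70 and P2rx5 at 2.06, so the order of these 3 genes depends on the length used. By merged exon length, P2rx1 was above 43.4% of genes tested after Circ-INSR siRNA.

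As shares of the summed P2X level per kb, P2rx7 held 58.8 ± 0.227% in control and 55.3 ± 1.14% after Circ-INSR siRNA (SD over 3 libraries). P2rx1 went from 1.69 ± 0.285% to 20.4 ± 1.09%. P2rx4 went from 16.9 ± 0.391% to 8.88 ± 0.281%, and P2rx5 from 18.7 ± 0.225% to 11.997 ± 0.540%. The sum itself was lower, at 21.8 ± 0.687 against 17.1 ± 0.761 CPM per kb, with more lost over the other subunits than P2rx1 gained. With the longest transcript as the length, P2rx1 went from 1.40% to 17.7% and the sum from 27.9 to 20.8 CPM per kb. These are shares of mRNA, and subunit proteins were not measured.

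**Figure D3:**
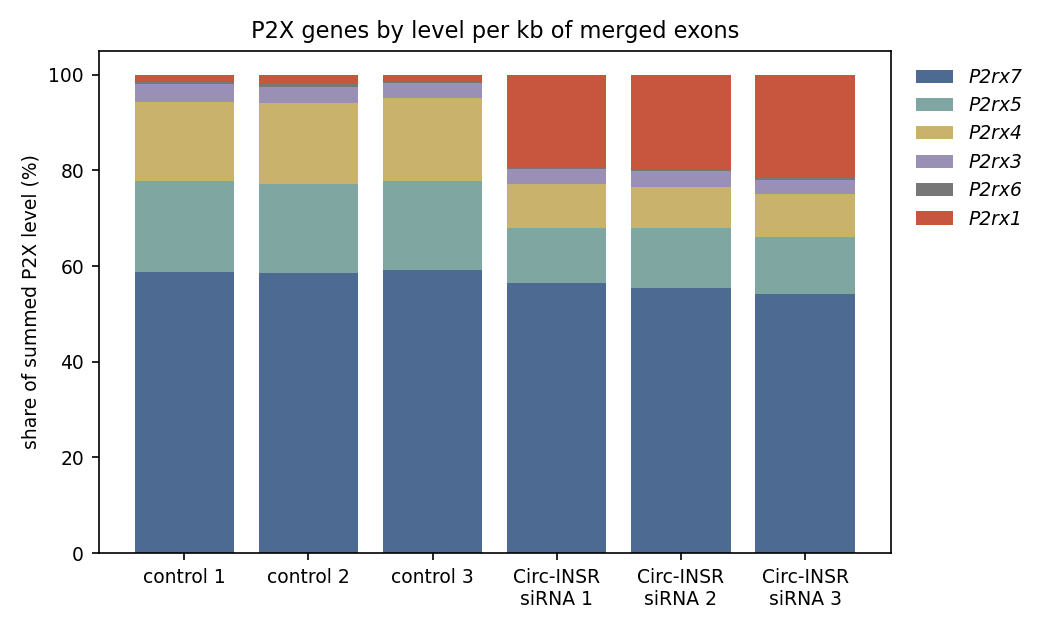
Share in percent (y axis) of the summed level per kb of merged exons that each of the 6 P2X genes held in each library (bars, 3 control and 3 Circ-INSR siRNA). P2rx7 holds 54.2% to 59.1% of every bar, and the P2rx1 segment is 1.51% to 2.02% in control and 19.6% to 21.6% in Circ-INSR siRNA libraries.

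Of the receptor genes with values 6 lie in pairs on the same chromosome and strand. P2rx1 and P2rx5 are 145220 bases apart on chromosome 11, with other tested genes between them. P2rx7 and P2rx4 are 16111 bases apart on chromosome 5, and P2ry6 and P2ry2 are 21918 bases apart on chromosome 7. The pair on chromosome 11 went in opposite directions, and the level per kb of P2rx1 over that of P2rx5 was 0.0905 ± 0.0163 in control with Circ-INSR siRNA 1.699 ± 0.112 (SD, n = 3 each). On chromosome 5 both genes were lower, P2rx4 more so, and the ratio of P2rx7 to P2rx4 was 3.47 ± 0.0750 and 6.23 ± 0.204. On chromosome 7 the ratio of P2ry6 to P2ry2 was 0.0910 ± 0.00347 and 0.0836 ± 0.00748, and its libraries overlapped between groups.

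The genes around the receptors were not chosen for their change and were tested with edgeR, adjusted over all genes. Atp2a3, which encodes a calcium pump of the endoplasmic reticulum and lies 6058 bases before P2rx1 on the same strand, was at 5.05 ± 0.208 CPM in control and rose to 11.9 ± 0.747 CPM, with a log2 fold change of 1.23 (SE 0.08; edgeR adjusted p = 1.58e-07). On the other side of P2rx1 the lincRNA gene 4732414G09Rik, on the opposite strand, was at 0.241 and 0.104 CPM, and its change of -1.22 (SE 0.44; edgeR adjusted p = 0.0346) lost its call with DESeq2 (adjusted p = 0.0725), with no filter on low counts (0.0621), with a replicate block (0.0596) and without control replicate 2, Circ-INSR siRNA replicate 2 or Circ-INSR siRNA replicate 3. Between it and P2rx5 lie 4 more tested genes, of which Camkk1, Ncbp3 and Haspin were named after their values were seen. Camkk1 (0.16, SE 0.10; edgeR adjusted p = 0.215) did not pass, Ncbp3 and Haspin rose by 0.18 and 0.37, and Itgae, an integrin gene at 0.944 CPM in control, fell by 0.73. Behind P2rx5, Emc6 had a log2 fold change of 0.15 (SE 0.06; edgeR adjusted p = 0.0654), which passed without control replicate 3 (adjusted p = 0.000462), with no filter (0.0342) and with a replicate block (0.0408). From Atp2a3 to Emc6 the tested genes thus included both directions.

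**Figure D4:**
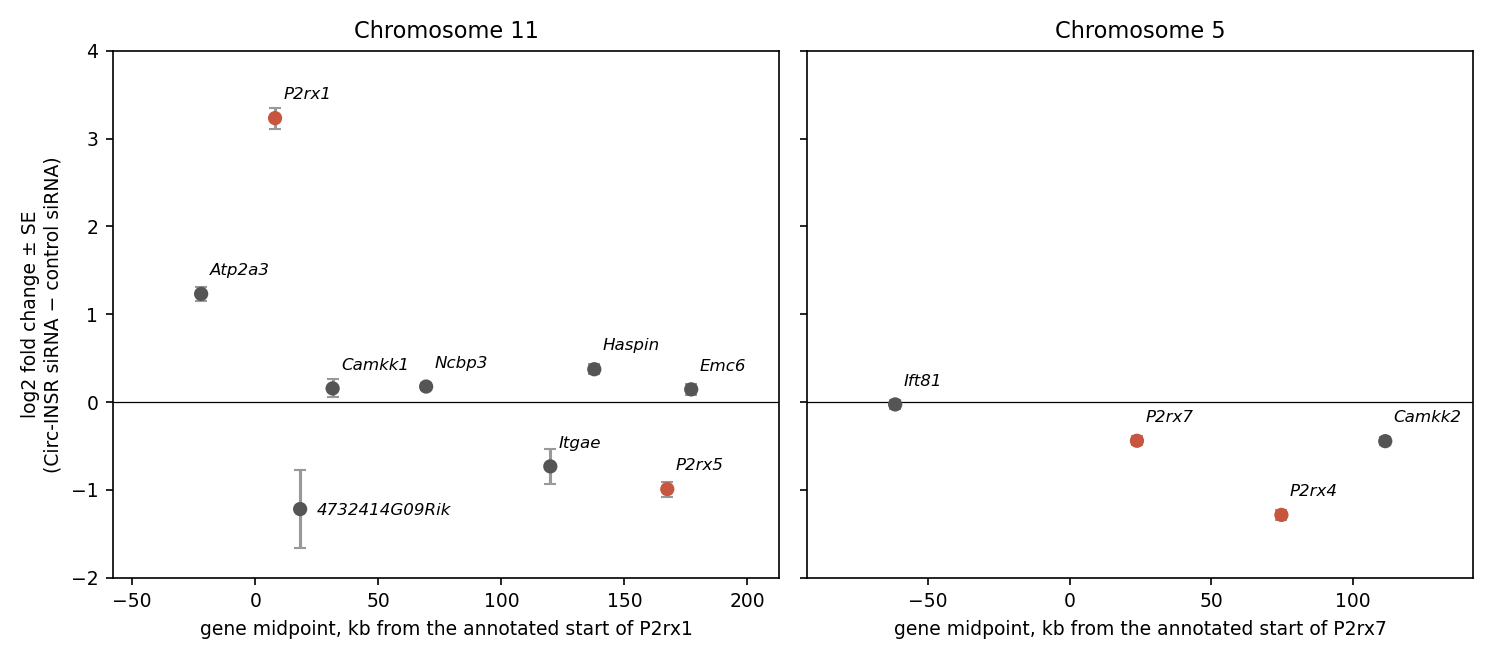
Log2 fold change with SE (y axis) of every tested gene from Atp2a3 to Emc6 on chromosome 11 and from Ift81 to Camkk2 on chromosome 5, against the distance of the gene's midpoint from the annotated start of P2rx1 or P2rx7 in kb (x axis). Receptor genes are red and other genes grey. P2rx1 (3.23) and Atp2a3 (1.23) lie highest on chromosome 11, and P2rx4 (-1.28) lies lowest on chromosome 5.

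On chromosome 5, Ift81 before P2rx7 had a log2 fold change of -0.03 (SE 0.06; edgeR adjusted p = 0.711). Camkk2, a calcium-dependent kinase gene that lies 1431 bases behind P2rx4 on the opposite strand, fell by 0.44 (SE 0.05; edgeR adjusted p = 8.62e-06), the same size as at P2rx7. Around the pair on chromosome 7, Fchsd2 fell by 0.26 (edgeR adjusted p = 0.00255), and Arhgef17 had a value of 0.07 (adjusted p = 0.579). Beside P2rx3, Tnks1bp1 fell by 0.35 and the overlapping Ssrp1 rose by 0.35, while Prg2 (0.40, SE 0.33) did not pass. Beside P2rx6, Slc7a4 fell by 0.48 and Smpd4 rose by 0.25, and Lrrc74b (0.22, SE 0.36) did not pass. The nearest tested genes beside the undetected receptors lay far off. Rap2b, 352655 bases from P2ry1, fell by 0.75. Gm8325, 125207 bases from P2ry1, fell by 0.20, but it is a transcribed processed pseudogene whose reads may come from a related gene. Igsf10, 163116 bases from P2ry14, rose by 1.63. On the other side of P2ry14, 126049 bases away, lies Rpl13-ps6. Rpl13-ps6, a processed pseudogene whose reads may come from Rpl13, had a value of 0.14 (edgeR adjusted p = 0.0306) that lost its call with total-count scaling (adjusted p = 0.139), with upper quartile scaling (0.0684) and without any 1 of the libraries control replicate 1, control replicate 2, Circ-INSR siRNA replicate 1 or Circ-INSR siRNA replicate 3.

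Genes with the pattern most like that of P2rx1 were sought by the root mean square distance of centred log2 CPM over the 6 libraries. The search covered 13337 other genes with an average log2 CPM of 0 or more and a count above 0 in every library. Genes at 0 in any library were thus left out. The nearest were Atp1b2, a sodium pump beta subunit gene (0.28), Mgat3, a glycosyltransferase gene (0.28), Mmrn1, the multimerin gene (0.30), Casq1, a calcium-storing protein of the sarcoplasmic reticulum (0.31), and Hrc, another calcium-binding protein of that store (0.38). In the same order their mean CPM was 7.22-fold, 7.15-fold, 6.78-fold, 6.55-fold and 6.35-fold higher, against 9.43-fold for P2rx1, and as they were picked for likeness to it these are descriptions. With 2 groups the distance mostly measures the size of the difference between them.

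Extracellular nucleotides are released by channels, act on the receptors and are cut to adenosine, which is taken up again. Of 66 genes listed for these steps and for the relay inside the cell, the other receptors included, 48 were tested, of which 14 rose and 20 fell (edgeR, adjusted over all genes). That is 70.8% of them against 57.0% of all genes tested, and the median log2 fold change was -0.09 against -0.0045. The lists were drawn up with earlier results of these data known, so nothing is read from this share or median.

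All 3 adenosine receptor genes tested changed, and Adora3 had 0 counts. Adora1, the receptor that slows the atrial beat through Gi proteins, was at 60.2 ± 1.35 CPM in control (SD, n = 3) and fell to 32.4 ± 1.93 CPM, with a log2 fold change of -0.89 (SE 0.05; edgeR adjusted p = 7.23e-08). Adora2b, the low-affinity receptor coupled to Gs, fell from 2.52 ± 0.260 to 0.586 ± 0.0879 CPM (-2.10, SE 0.17; edgeR adjusted p = 9.49e-07). Adora2a rose by 0.21 (SE 0.08; edgeR adjusted p = 0.0451), a call that ended with total-count scaling (adjusted p = 0.116), with upper quartile scaling (0.0718), with the filter of 1 CPM in 3 libraries (0.0519) and without any 1 library other than control replicate 3.

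Of 7 genes tested in the ecto-nucleotidase list 2 rose, 3 fell and 2 did not pass. Ada, adenosine deaminase, is counted among these 7 and among the 3, although its substrate is adenosine and not a nucleotide. Its level fell from 47.3 ± 0.151 to 24.3 ± 0.520 CPM (edgeR adjusted p = 1.54e-08). Alpl, the tissue-nonspecific alkaline phosphatase, fell from 91.2 ± 6.16 to 56.4 ± 1.63 CPM, and Enpp1, which cuts ATP to AMP and pyrophosphate, rose from 28.6 ± 2.25 to 44.8 ± 1.88 CPM. Of 10 genes of nucleotide release tested 2 rose, 3 fell and 5 did not pass. Panx2, a pannexin gene, fell from 3.22 ± 0.242 to 0.833 ± 0.0385 CPM (-1.95, SE 0.14), Calhm2 fell by 0.67 (SE 0.08), and Panx3 rose from 0.419 ± 0.117 to 1.45 ± 0.253 CPM. Of 6 genes of adenosine uptake tested 3 rose, 2 fell and 1 did not pass. Slc29a4, a monoamine and adenosine transporter gene, fell by 1.51 (SE 0.08), while the nucleoside transporter gene Slc29a2 rose by 0.56 (SE 0.05) and Adk, adenosine kinase, by 0.48 (SE 0.05).

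In the relay of the P2Y receptors 5 of 16 genes tested rose, 6 fell and 5 did not pass. Gna14 and Gna15, both of the Gq family of alpha subunits, moved apart. Gna14 rose from 7.14 ± 0.0446 to 18.9 ± 0.508 CPM (1.40, SE 0.06; edgeR adjusted p = 9.51e-09), and Gna15 fell from 24.3 ± 1.17 to 9.80 ± 0.387 CPM (-1.31, SE 0.06; edgeR adjusted p = 1.84e-08). Gnai2, an inhibitory alpha subunit, fell from 335.9 ± 10.5 to 199.8 ± 6.09 CPM. Of 6 genes acting downstream of P2X7 that could be tested 1 rose, 4 fell and 1 did not pass. Ano6, a lipid scramblase, rose by 1.06 (SE 0.06), while Pycard, the inflammasome adaptor ASC, and Gsdmd, the pore-forming gasdermin D, fell by 0.57 and 0.49 (SE 0.05 each). The inflammasome sensor Nlrp3 and the cytokine gene Il1b were too low to test, with 50 and 8 counts over the 6 libraries.

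**Figure D5:**
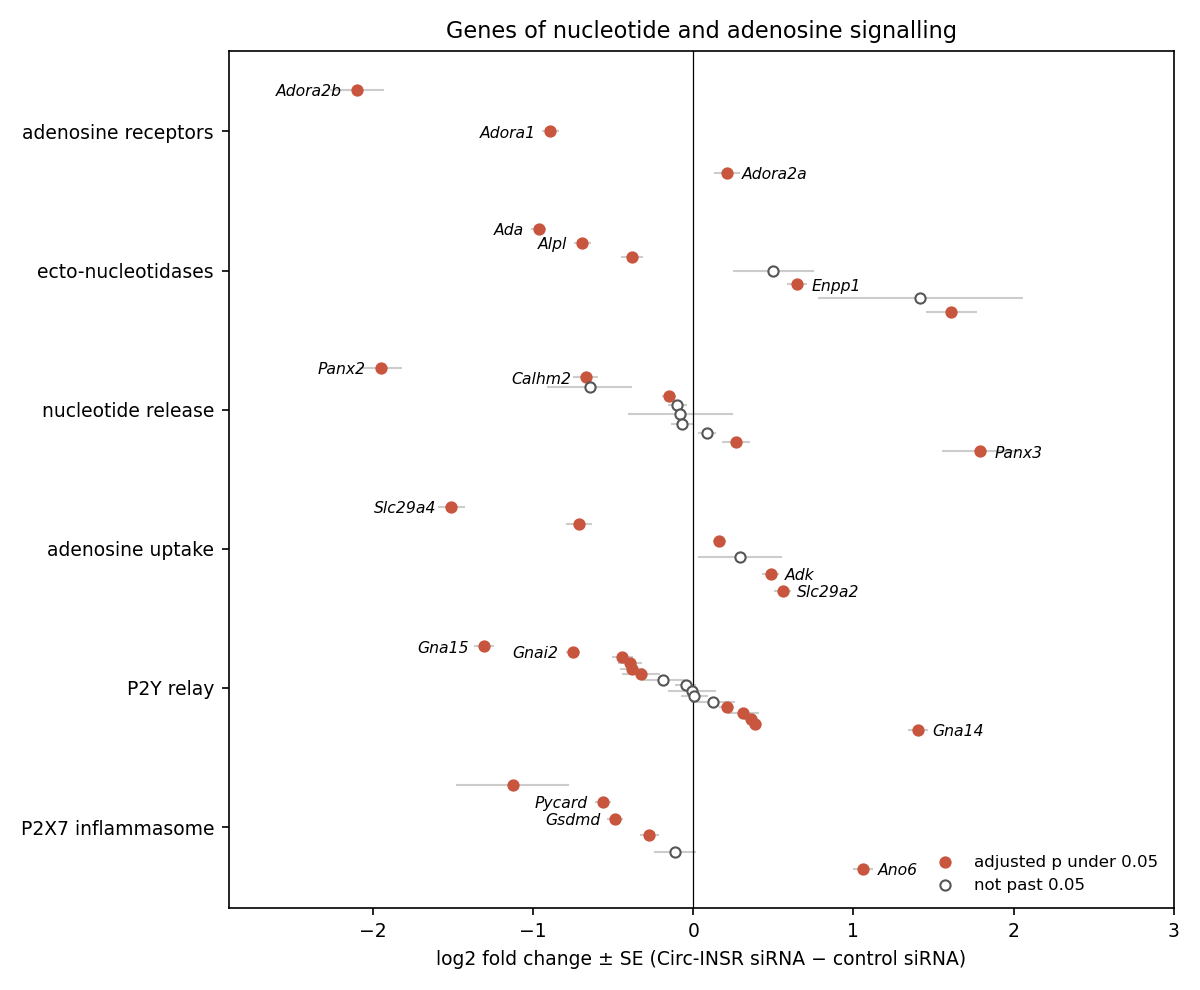
Log2 fold change with SE (x axis, Circ-INSR siRNA minus control siRNA) of the tested genes of nucleotide and adenosine signalling, in 6 lists (y axis). Filled points passed an adjusted p of 0.05 in the edgeR test and open points did not. Each list holds points on both sides of 0, with Adora2b (-2.10) at the far left and Panx3 (1.79) at the far right.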

How the data were processed

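Poly(A)-selected RNA of HL-1 cells was sequenced from directional libraries, per the labels' protocols, a step that keeps few circular RNAs. The authors deposited unnormalized read counts for each Ensembl gene ID, with 1 file per library. Per the submitters' processing notes the build was mm10, and STAR 2.5.0c and featureCounts 1.6.4 are among the tools, with no role given. For the annotation release and the strand setting, the sources used here give nothing. In every file more genes had a count of 2 than of 1, as when both mates of a pair are counted, so tests were repeated on halved counts, and floors cover counting error only. Of 38087 IDs, 36308 (95.33%) were found in GENCODE M21, which gave symbols, positions and lengths.

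Genes were filtered with filterByExpr (minimum count 10, minimum total 15), scaled by TMM (factors 0.983 to 1.03) and tested with edgeR 4.0.16 (robust quasi-likelihood F-test, group as the only term) in R 4.3.3. All 6 libraries and 16666 genes entered the fit, and p-values were adjusted over all of them (Benjamini-Hochberg, 0.05). The SE is the absolute log2 fold change over the square root of F. The steps were tested on simulated data. Alternatives were other scalings and filters, DESeq2 1.42.0, limma-voom (limma 3.58.1), a replicate block, halved counts, each library left out, and the longest transcript as the length. For the genes most like P2rx1, the other scalings except total counts and the left-out libraries were added after the data were seen. Receptor genes and gene lists were chosen with earlier results of these data known. Named genes were all listed receptors, the other receptor genes, up to 3 genes per list with the smallest adjusted p, the nearest tested genes on each side, and the 5 nearest in pattern. Marker genes given with values were named after those were seen. Marker lists of endothelial cells and fibroblasts were also read. Of 4 tested endothelial markers 2 rose. The summed endothelial level was 27.3 to 30.7 CPM in control and 82.7 to 86.7 CPM after Circ-INSR siRNA. Most of that sum was Kdr, with means of 24.2 and 71.6 CPM, while Cdh5 had 8 counts in total and Vwf 28. Of 4 tested fibroblast markers 1 rose and 1 fell.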

Additional observations from a re-analysis of the deposited data

How the results depend on the processing

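The 8 receptor genes with values kept the sign of their log2 fold change in all 117 values that 15 alternatives gave for them, and 1 moved by more than the SD between replicates, that of P2rx4 with total counts only (-1.33 against -1.28). The alternatives refit the libraries on which these genes were chosen, so the kept signs describe the processing only. P2rx6, too low to judge, is among the 8. P2rx6 had no value with counts halved, and P2rx6 and P2ry6 none with the filter of 1 CPM in 3 libraries. The count of receptor genes past the threshold in the lower direction was 5 of 8. Of all genes tested 28.5% were past it in that direction. With 1 library left out the count lay between 4 and 6. Since the comparison entered the choice of these genes, nothing is read from this count. With the longest transcript as the length, 2 of the 8 genes, P2rx4 and P2rx5, changed places in the control order, and 3, P2rx4, P2ry2 and P2rx5, in the Circ-INSR siRNA order. Of the 5 genes nearest to P2rx1 in pattern, 4 were among the nearest 5 without control replicate 3, and all 5 under the other scalings and with any other library left out. Of 1068 values for 72 other tested genes, 1001 kept their sign and their side of the threshold, 37 lost a call, 14 gained one and 16, from 8 genes, changed sign. None of these 16 was past the threshold in either fit, and the cause was not tested. Gnao1 became -0.0111 with upper quartile scaling, -0.0363 with total counts only and -0.0043 with the filter of 1 CPM, and Plcb2 became 0.0023 with no filter and 0.0039 with limma-voom. With 1 library left out the log2 fold change ranged from -0.0848 to 0.104 for Gnao1, -0.112 to 0.0840 for Plcb2, -0.0212 to 0.238 for Plcb1, -0.209 to 0.0349 for Casp1, -0.236 to 0.167 for Slc17a9, -0.0728 to 0.0345 for Ift81, -0.0431 to 0.159 for Arhgef17 and -0.116 to 0.404 for Lrrc74b. Control replicate 3 was the library left out in the sign changes of Casp1, Ift81, Arhgef17 and 1 of those of Gnao1. Over all genes, 4750 higher and 4745 lower calls became 4130 and 5326 with total counts only, 4466 and 4990 with upper quartile scaling, and 4209 to 5150 and 4148 to 5064 with 1 library left out, where the pathway genes' 14 and 20 became 11 to 14 and 17 to 23. Under the other scalings, filters and tools, the block included, the pathway counts lay between 13 and 15 and between 19 and 21. The labels do not say that equal replicate numbers share a batch, and libraries of the same number deviated together with correlations of 0.043, 0.14 and 0.12 across genes, where each library correlated best with its own number. With a replicate block 4968 genes were higher and 4900 lower, with 14 and 21 of the pathway genes. Precision is limited by counts for P2rx6 and P2ry6 and by the absence of reads for P2ry1 and P2ry14.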
